A study of Mus musculus with 4 samples.

Results

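The interferon regulatory factor genes Irf1, Irf2, Irf3, Irf4, Irf5, Irf7, Irf8 and Irf9 were read on 4 single-colour Agilent mouse expression arrays, as 8 of the 37074 genes named on the array. They were taken by gene name, with every probe that carries one of these names, which gave 2 probes per gene and 16 in all. There was 1 array for each pairing of a genotype (WT or Nr4a-TKO) with a stage (naive T or iTreg at 3 h). Naive T are CD4+ cells sorted from spleen and lymph nodes as CD25 low, CD44 low, CD62L high and Foxp3 negative. iTreg at 3 h are such cells after 3 h on plate-bound anti-CD3 (2 µg/ml) and anti-CD28 (0.5 µg/ml) with anti-IFN-γ (1 µg/ml), anti-IL-4 (1 µg/ml), IL-2 (10 ng/ml) and TGF-β1, whose dose the labels give as 0.2 or 0.5 ng/ml. Stimulation through the T cell receptor, cytokines and time in culture therefore differ together between the stages. Nr4a-TKO mice lack the nuclear receptors Nr4a1, Nr4a2 and Nr4a3, the first 2 through floxed alleles and Nr4a3 through a germline knockout, and the Cre that acts on the floxed alleles is not given in the sources used here. All cells came from bone marrow chimeras made in irradiated Rag2-/- hosts. Nr4a-TKO cells developed beside WT marrow in mixed chimeras, whereas WT cells came from chimeras of WT marrow alone, so genotype and kind of chimera cannot be told apart.

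IRF proteins share a DNA-binding domain that recognises GAAA repeats, found in the interferon-stimulated response element (ISRE). Irf3, Irf5 and Irf7 are switched on by innate sensing of nucleic acids and drive interferon genes, and Irf9 is part of ISGF3, the complex through which type I interferon acts. Irf1 is induced by interferon-γ and activates genes of antigen presentation and of Th1 cells, and Irf2 competes with it for the same sites. Irf4 and Irf8 are close relatives of the lymphoid and myeloid lineages that bind DNA weakly alone and act with AP-1 (Batf with Jun) or with the Ets factors Spi1 and Spib. In T cells Irf4 is induced by signalling through the T cell receptor and is needed for effector and effector Treg cells.

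Promoters are shown for Irf4 and Irf8, which were higher at 3 h, and for Irf1 and Irf2, which were lower. Irf7 and Irf9 were lower too and are not shown. Each sequence is the 250 bases before the start site in RefSeq on GRCm38.p6. Capitals mark matches to the ISRE (GAAA, any 2 bases, GAAA) or to GAS (TTCNNNGAA), an element of interferon-γ response genes. The windows lie on the plus strand at chr13:30748983-30749232 for Irf4, chr8:120736108-120736357 for Irf8, chr11:53769764-53770013 for Irf1 and chr8:46739495-46739744 for Irf2.
Irf4: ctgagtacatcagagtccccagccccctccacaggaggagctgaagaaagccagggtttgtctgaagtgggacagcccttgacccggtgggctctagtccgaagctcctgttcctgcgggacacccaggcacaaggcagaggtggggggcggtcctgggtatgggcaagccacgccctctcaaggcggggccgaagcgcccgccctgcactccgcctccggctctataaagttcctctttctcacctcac
Irf8: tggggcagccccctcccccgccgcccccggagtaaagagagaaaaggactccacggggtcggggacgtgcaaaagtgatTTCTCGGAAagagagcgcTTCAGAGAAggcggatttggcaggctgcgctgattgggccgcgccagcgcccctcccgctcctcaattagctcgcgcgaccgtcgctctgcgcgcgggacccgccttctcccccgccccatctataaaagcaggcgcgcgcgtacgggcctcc
Irf1: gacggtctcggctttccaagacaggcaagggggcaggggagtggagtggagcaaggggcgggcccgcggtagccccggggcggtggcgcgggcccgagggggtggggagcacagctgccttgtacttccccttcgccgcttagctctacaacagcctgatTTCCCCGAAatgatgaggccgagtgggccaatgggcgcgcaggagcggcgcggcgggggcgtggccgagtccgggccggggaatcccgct
Irf2: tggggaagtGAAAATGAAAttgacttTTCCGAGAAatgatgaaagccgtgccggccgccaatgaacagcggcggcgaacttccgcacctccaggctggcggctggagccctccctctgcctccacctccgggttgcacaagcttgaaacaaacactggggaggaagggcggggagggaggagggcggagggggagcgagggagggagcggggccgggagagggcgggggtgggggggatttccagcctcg

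In windows of 300 bases (250 before to 50 after the start), both strands were searched, with 11 windows for the 8 genes because Irf1, Irf8 and Irf9 have 2 start sites each in the table. GAS was matched in 3 of the 8 genes and in 8.3% of 32851 promoters. Irf1 held TTCCCCGAA beginning 90 bases before the start, Irf2 held TTCCGAGAA at 224 bases, and Irf8 held TTCTCGGAA at 171 and TTCAGAGAA at 153 bases. The ISRE was matched only in Irf2 among the 8 genes, as GAAAATGAAA at 241 bases, and in 3.44% of all promoters. GGAAAA, the core bound by NFAT, was matched in Irf2, where it overlaps the GAS match, and in 1 window of Irf9, against 23.4% of all promoters. Genes with a GAS match included 2 that were lower at 3 h (Irf1, Irf2) and 1 that was higher (Irf8), and the Irf4 window held none of the 3 motifs. Irf7 and Irf9, which were also lower at 3 h, held neither a GAS nor an ISRE match.

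For Irf1 and Irf7, 1 probe spans an intron, so that the 2 probes of each gene read separate places of the transcript. The junction probes are shown whole, because the lower levels of both genes at 3 h were read by them as well as by the other probe.
Irf1 probe, mm9 chr11:53587446-53587591: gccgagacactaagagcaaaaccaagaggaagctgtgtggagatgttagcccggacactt
Irf7 probe, mm9 chr7:148450664-148451014: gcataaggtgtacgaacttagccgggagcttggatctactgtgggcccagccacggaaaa

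Levels below are log2 values of background-corrected intensity, quantile-normalized across the 4 arrays. A gene took its probe with the higher mean over the arrays, levels are never compared between probes, and probe positions are on mm9. A probe not well above local background on 1 of 2 arrays was raised there to the array's lowest level that passed (between 3.07 and 3.45) if it lay below it. A dim value above that level was kept as read. In both cases the fold is given as a lower bound. No condition had a replicate and no difference was tested. Differences are set beside a threshold of 2-fold and beside the spread of probes printed on at least 5 spots of an array. A spread of 2 SD of a log2 difference was between 0.33 and 0.37, which covers the array alone and neither mice nor cultures. The 4 arrays were on 1 slide and read in 1 scan, with 64.9% to 67.6% of probes well above background and no saturated spot. Of the 16 IRF probes, 14 were well above background on all arrays. As a check of cell type, Cd3e, Cd3g, Cd4 and Lck were well above background on all arrays. So were Cd8a, Cd8b1, all 7 B cell genes, Csf1r and Itgam, so passing background does not tell cell types apart here. As a check of stage, 7 of 7 early activation genes were more than 2-fold higher at 3 h in both genotypes. Of 5 naive T genes, 4 were more than 2-fold lower in WT and 5 in the cells labelled Nr4a-TKO. The check of genotype was mixed. At 3 h, the array labelled Nr4a-TKO read higher than WT by 4 of 6 probes for Nr4a1, Nr4a2 and Nr4a3. Their log2 differences were 0.48 for Nr4a1, 1.37 and 1.38 for Nr4a2 and 0.19 for 1 probe of Nr4a3. It read lower by 2 probes of Nr4a3, with log2 differences of -1.85 and -1.46. Whether the 6 probes lie in the deleted parts is not given in the sources used here. They therefore do not settle the labels, and directions between genotypes rest on the labels.

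Between naive T and 3 h of iTreg culture, Irf4 and Irf8 were more than 2-fold higher and Irf1, Irf2, Irf7 and Irf9 more than 2-fold lower, in WT and in cells labelled Nr4a-TKO alike. Irf5 was higher by less than 2-fold, and Irf3 stayed within the spread of repeated spots. In WT, 2 of 8 genes were thus higher, where 8.19% of the 26602 genes with a difference were, and 4 of 8 lower, where 8.21% were. On the arrays labelled Nr4a-TKO the same counts stood beside 7.55% higher and 7.61% lower of 27166 genes. By probe, 3 of 16 were higher and 7 lower in each genotype, where 9.23% and 8.47% of all probes were in WT and 8.19% and 7.92% in Nr4a-TKO. The median log2 difference of the 8 genes was -0.94 in WT and -0.58 in Nr4a-TKO, beside -0.05 and -0.02 over all genes.

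**Figure D1:**
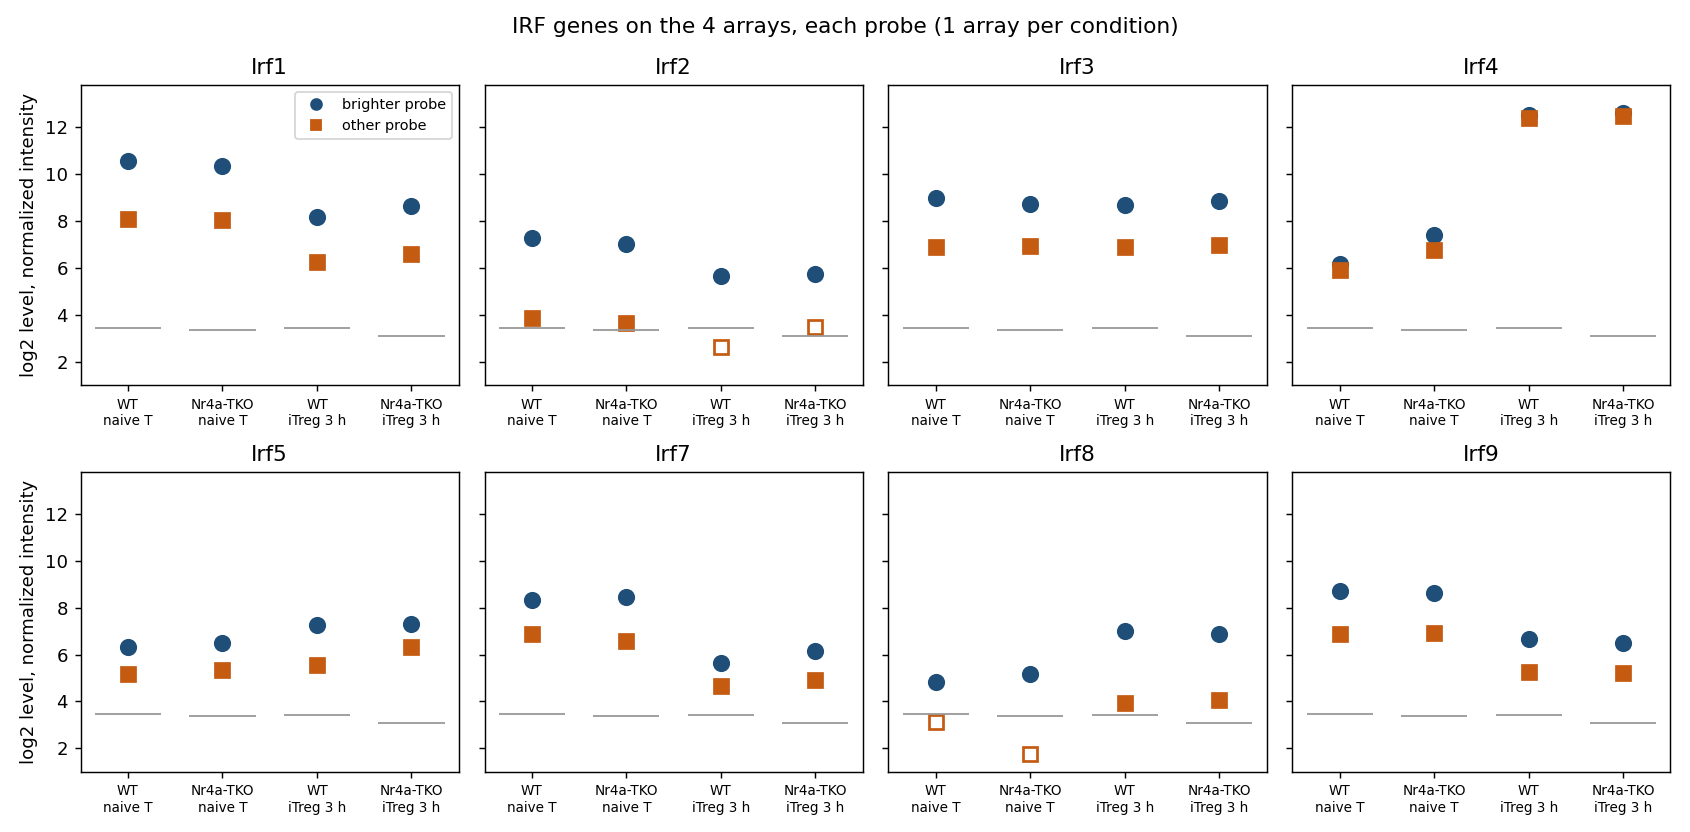
Log2 level of each IRF probe on the 4 arrays, 1 array per condition. Circles are the brighter probe of a gene and squares the other, open symbols were not well above background, and grey lines are the lowest level called well above background on that array. Irf4 goes from 6.16 and 7.41 on the naive arrays to 12.51 and 12.62 at 3 h. Irf1, Irf7 and Irf9 are lower at 3 h by both of their probes. Irf2 is lower by its brighter probe, and its second probe is near the background.

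Irf4, the factor that T cell receptor signalling induces, had the highest difference of all 26602 genes in WT. Its brighter probe (chr13:30856460-30856519) had log2 levels in naive T of 6.16 for WT and 7.41 for Nr4a-TKO, and in iTreg at 3 h of 12.51 for WT and 12.62 for Nr4a-TKO. In the scanner's processed intensity, before any scaling between arrays, these were 60, 144, 6330 and 6863. The levels at 3 h were thus nearly the same in both genotypes, and the naive levels were not.

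The log2 difference between the stages was 6.35 in WT, which is 81.3-fold, and 5.21 in Nr4a-TKO, which is 37.0-fold. The second probe (chr13:30858532-30858591) read 5.91, 6.76, 12.40 and 12.45 in the same order, with log2 differences of 6.49 in WT and 5.69 in Nr4a-TKO. Irf4 was first in WT under each of the 7 alternative ways to process the intensities, with log2 differences from 5.59 to 6.54. In Nr4a-TKO it was 4th of 27166 genes, and between 1st and 6th under the alternatives.

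Irf8, the relative of Irf4 best known from dendritic cells, macrophages and B cells, was the other factor past 2-fold upward. Its brighter probe (chr8:123280324-123280383) had log2 levels of 4.83 and 5.19 in WT and Nr4a-TKO naive T and of 7.01 and 6.86 at 3 h. The log2 difference was 2.18 in WT, or 4.53-fold, and 1.67 in Nr4a-TKO, or 3.19-fold. These naive levels were low, and with an offset of 50 added to the intensities the differences were 1.19 and 0.94, the second of which is under 2-fold. The other probe (chr8:123267009-123267068, named for another transcript) was well above background only at 3 h, at 3.94 and 4.07, which makes it at least 1.41-fold higher in WT and at least 1.62-fold in Nr4a-TKO.

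Irf4 and Irf8 are also expressed in cells other than T cells, so markers of these cells were read on the same arrays. In these bulk samples, fewer cells of a type and less RNA per cell cannot be told apart. From naive T to 3 h, the summed processed intensity of 7 B cell genes went from 3186 to 3095 in WT and from 3385 to 3769 in Nr4a-TKO, with all 7 well above background on the 4 arrays. That of 6 dendritic cell genes went from 4259 to 4183 and from 3755 to 4108, with Clec9a and Xcr1 well above background only in Nr4a-TKO naive T, and that of 6 myeloid genes was between 37263 and 40320. Each sum holds 1 bright probe, with log2 levels in WT naive T of 11.25 for Cd22, 12.07 for Siglech and 15.06 for Itgam. Medians over the genes are therefore given as well. By gene, the median log2 difference between stages in WT was -0.32 for the B cell genes, -0.20 for the dendritic cell genes and -0.17 for 6 myeloid genes. In Nr4a-TKO these medians were -0.25, -0.21 and -0.17. None of the genes of these 3 lists was more than 2-fold higher at 3 h in either genotype. Cd79b was 5.79-fold lower in WT and 2.30-fold lower in Nr4a-TKO, and Cd14 was at least 7.39-fold lower in WT and 1.53-fold higher in Nr4a-TKO. Clec9a was also past 2-fold in Nr4a-TKO, with a log2 difference of at most -1.14.

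Irf1 had the brightest of its own 4 values in WT naive T and was lower at 3 h by both probes. The brighter probe (chr11:53590746-53590805) had log2 levels of 10.54 in WT naive T, 10.33 in Nr4a-TKO naive T, 8.18 in WT iTreg and 8.64 in Nr4a-TKO iTreg. This was a log2 difference of -2.36 in WT, or 5.13-fold lower, and of -1.69 in Nr4a-TKO, or 3.22-fold lower. The junction probe shown above read 8.09, 8.03, 6.24 and 6.61, or 3.61-fold lower in WT and 2.69-fold lower in Nr4a-TKO.

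Irf2, which antagonises Irf1 on shared sites, was lower as well and by less. Its brighter probe (chr8:47932486-47932545) had log2 levels of 7.26 and 7.03 in WT and Nr4a-TKO naive T and of 5.67 and 5.75 at 3 h, for differences of -1.59 and -1.28. The difference in Nr4a-TKO was under 2-fold with an offset of 50 (-0.80) and with the mean of both probes (-0.72). The other probe (chr8:47893357-47893416) was well above background only in naive T, at 3.86 and 3.65. Its differences were at most -0.43 in WT and -0.17 in Nr4a-TKO, the second within 2 SD of repeated spots.

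Irf7, the main amplifier of type I interferon production, was the furthest below its naive level of the 8 genes in both genotypes, except that in WT Irf1 was lower still with an offset of 50 (-2.18) or with no background correction (-2.30). Its brighter probe (chr7:148449104-148449163) had log2 levels of 8.33 in WT naive T, 8.44 in Nr4a-TKO naive T, 5.66 in WT iTreg and 6.14 in Nr4a-TKO iTreg. The differences of -2.67 and -2.30 were 6.37-fold and 4.92-fold lower. With an offset of 50 they were -1.89 and -1.72. The junction probe read 6.88, 6.56, 4.66 and 4.93, or 4.65-fold and 3.10-fold lower.

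Irf9, the DNA-binding subunit of ISGF3, had the same difference in both genotypes within the spread of repeated spots. Its brighter probe (chr14:56228806-56228865) had log2 levels of 8.73 and 8.61 in WT and Nr4a-TKO naive T and of 6.65 and 6.51 at 3 h, which is 4.21-fold and 4.29-fold lower. The other probe (chr14:56228256-56228315) read 6.86, 6.92, 5.26 and 5.21 and was 3.04-fold and 3.27-fold lower. Of the genes lower at 3 h, Irf7 was 229th from the lowest of 26602 in WT, Irf1 344th, Irf9 507th and Irf2 970th.

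Of the factors that innate sensors activate, Irf3 and Irf5 did not go with Irf7. Irf3, which is held as an inactive protein until it is phosphorylated, had log2 levels of 8.96, 8.74, 8.66 and 8.86 on the brighter probe (chr7:52257700-52257759) and of 6.88, 6.92, 6.90 and 6.96 on the other (chr7:52255810-52255869), in the same order of arrays. Its differences of -0.30 and 0.12 between stages were both within 2 SD of repeated spots. Irf5, which acts downstream of Toll-like receptors, had log2 levels of 6.33 and 6.49 in naive T and of 7.25 and 7.32 at 3 h (chr6:29491799-29491858), which is 1.90-fold and 1.77-fold higher. In the deposited values its difference in WT was 1.01, just past 2-fold. The other Irf5 probe (chr6:29486901-29486960) read 5.18, 5.34, 5.55 and 6.34, with differences of 0.37 in WT and 0.99 in Nr4a-TKO.

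**Figure D2:**
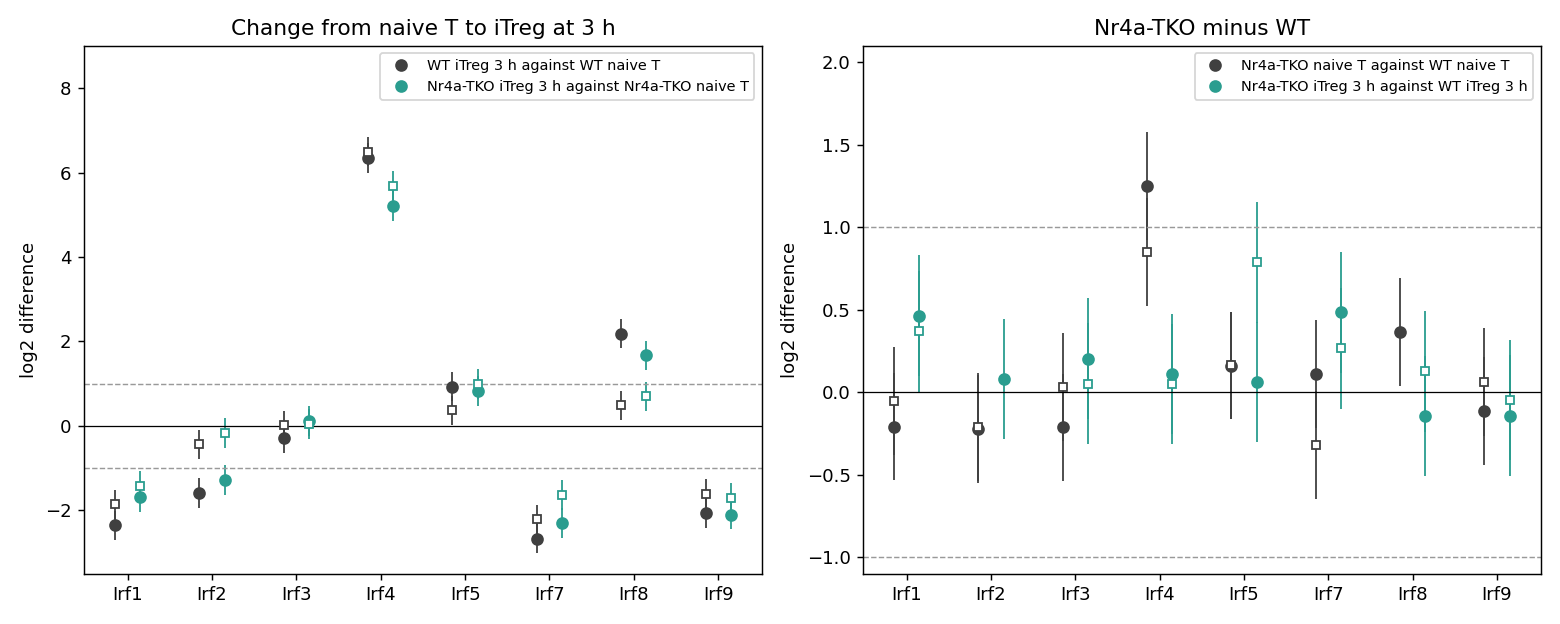
Log2 differences of the IRF genes between stages (left) and between genotypes (right). Filled circles are the brighter probe, open squares the other, bars are 2 SD of a difference between repeated spots, dashed lines mark 2-fold, and the second probes of Irf2 and Irf8 give bounds. Between genotypes only the brighter Irf4 probe in naive T (1.25) lies outside the dashed lines.

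Between the genotypes the IRF genes lay closer together than between the stages. In naive T, 1 of 8 genes was more than 2-fold higher on the array labelled Nr4a-TKO (1.86% of 26445 genes were) and none lower (1.72% were). By probe it was 1 of 15 higher (1.83% of all probes) and none lower (1.67%). This was Irf4, at 6.16 in WT and 7.41 in Nr4a-TKO, a log2 difference of 1.25 or 2.38-fold. It was 308th from the highest of 26445 genes. By the second probe the difference was 0.85, or 1.80-fold, and with an offset of 50 it was 0.86 by the brighter probe, so that both fall short of 2-fold. Irf8 was the only other gene beyond 2 SD of repeated spots in naive T, higher in Nr4a-TKO by 0.36, where 27.1% of all genes lay beyond that spread. The Irf8 difference was inside the spread with an offset of 50 (0.14) and with no background correction (0.20). The median over the 8 genes was -0.00, beside -0.02 over all genes.

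Markers were also read between the naive arrays. Nr4a1 had log2 levels of 7.04 and 8.38, higher on the array labelled Nr4a-TKO, and 5 of 7 early activation genes were above WT, none past 2-fold, with Egr3 the highest at 0.66 and Myc the lowest at -0.14. Of 7 B cell genes 5 were above WT, with a median of 0.48, from Cd79b at -0.56 to H2-Aa at 1.61. H2-Aa was the only B cell gene past 2-fold. Of 6 myeloid genes only Cd14 was, with a difference of -2.69, and of 6 dendritic cell genes none was. The part of these cells in the Irf4 difference was not tested.

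At 3 h, none of the 8 genes was more than 2-fold higher (1.69% of 26918 genes were) or lower (1.87%) on the array labelled Nr4a-TKO, nor was any of 15 probes (1.64% and 1.89% of all probes). Irf4 differed by 0.11 and Irf8 by -0.14, within the spread of repeated spots. All 7 B cell genes were above WT with a median of 0.77, and the part of such cells in the IRF levels was not tested. Irf7 and Irf1 were the 2 genes beyond 2 SD, higher by 0.48 and 0.46, where 22.5% of all genes lay beyond it. For Irf7 the difference was inside the spread with an offset of 50 (0.26) and with no background correction (0.33). Their junction probes differed by 0.27 and 0.37, the first inside that spread and the second at its edge. The second probe of Irf5 was higher by 0.79, or 1.73-fold, while its brighter probe differed by 0.06. These comparisons share arrays with the differences between stages, so a high or low value on 1 array enters both.

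The change in Nr4a-TKO minus the change in WT was -1.14 for Irf4 and -0.51 for Irf8, both smaller rises, and 0.67 for Irf1, 0.37 for Irf7 and 0.30 for Irf2, all smaller falls. For Irf3, whose changes were within 2 SD in both genotypes, it was 0.42. For Irf9 it was -0.03 and for Irf5 -0.10. By the second probes it was -0.80 for Irf4, 0.42 for Irf1, 0.59 for Irf7, 0.63 for Irf5, 0.02 for Irf3 and -0.11 for Irf9. The second probe of Irf8 gave 0.21, the opposite sign to the brighter one, and that of Irf2 gave 0.27, both from changes that are themselves bounds. None of these was tested, since each rests on 1 array per condition. For Irf4 the genotypes were 1.25 apart in naive T and 0.11 apart at 3 h.

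**Figure D3:**
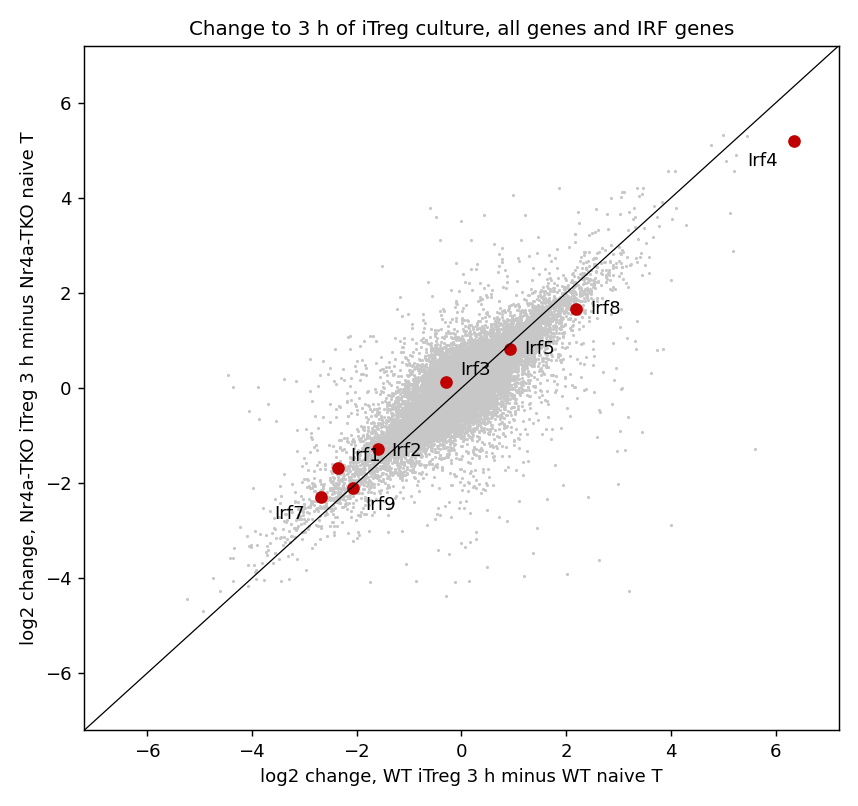
Log2 change to 3 h of iTreg culture in WT (horizontal) and in cells labelled Nr4a-TKO (vertical), with all genes in grey, IRF genes in red and the line of equal change. Irf4 is the furthest right of all genes at 6.35 and lies below the line at 5.21, and Irf7, Irf1, Irf9 and Irf2 lie at the lower left.

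The genes nearest to Irf1, Irf4, Irf7 and Irf8 over the 4 arrays were found by the root mean square distance between log2 levels centred on each gene's mean, among 22639 genes well above background on all arrays. With 4 arrays these distances are a description. Irf4 had no near neighbour by this distance. The levels were centred but not scaled, so the distance depends on the size of a change. Irf4 had the highest difference of all genes in WT, so its distances do not tell whether its pattern differs. The nearest were 3 intergenic transcribed loci on chromosome 16 between 84702353 and 84710928 on mm9, at distances from 0.49 to 0.71, followed by Spry1 at 0.72, an inhibitor of Ras signalling, and the kinase gene Map2k3 at 0.88. For Irf1 the first was Fmnl1 at 0.03, then Fbxo47, Entpd5, Rcsd1 and Eif4e3. For Irf7 the named genes were Emp3 at 0.06, Tmie and Tbc1d10c, and for Irf8 Nsun2 at 0.05, Nat10 and Ntmt1.

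Genes that act with the IRFs were read from 7 lists. Their counts stand beside 8.19% of all genes more than 2-fold higher and 8.21% lower at 3 h in WT. In Nr4a-TKO these shares were 7.55% and 7.61%. Between genotypes, 1.86% of all genes were higher and 1.72% lower in naive T, and 1.69% and 1.87% at 3 h. Among 11 genes of interferon signalling, 1 was more than 2-fold higher and 6 lower at 3 h in each genotype, with median log2 differences of -1.05 in WT and -1.02 in Nr4a-TKO. The kinase gene Jak2 was the one that was higher, by 2.09 and 2.23. Ifnar1, a chain of the type I interferon receptor, had differences of -0.11 and -0.30 on its brightest probe and went as low as -1.11 in WT over 4 probes.

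Interferon-stimulated genes that ISGF3 is known to bind and genes of class I antigen processing were read next. Of 14 interferon-stimulated genes, 13 had a difference in each genotype, of which 8 were more than 2-fold lower in WT and 9 in Nr4a-TKO and none higher, with medians of -1.48 and -1.64. Rtp4 was the lowest at -4.07 in WT and -4.17 in Nr4a-TKO, or 16.8-fold and 18.0-fold lower. Isg15 differed by -0.63 and -0.81, and Mx1 was the highest at 0.64 and -0.17 by its brighter probe. The other Mx1 probe had a difference only in Nr4a-TKO, of at most -1.51. Of 8 genes of class I antigen processing, 6 were more than 2-fold lower in each genotype, with medians of -1.39 and -1.33. Psmb9, a subunit of the immunoproteasome, had differences of -2.87 and -2.37 by its brighter probe, but of -0.69 and -0.49 by the other. B2m, the light chain of class I molecules, had differences of 0.15 and 0.08 by its brighter probe and of -0.55 and -0.31 by the other.

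Of 13 innate sensors and kinases upstream of Irf3, Irf5 and Irf7, 3 were more than 2-fold lower in each genotype, none was higher in WT and 1 was higher in Nr4a-TKO. Ddx58, which encodes the RNA sensor RIG-I, had differences of -3.56 and -3.48, though only -1.05 in WT on the least changed of its 4 probes. Tmem173, which encodes STING, had differences of -2.67 and -2.02, and the adaptor gene Traf3 was higher by 0.95 and 0.78. The 1 of 13 higher in Nr4a-TKO, beside 7.55% of all genes, was Traf6 at 1.30, named here after its value was seen. In WT its difference was 0.49. Between genotypes Traf6 differed by -0.38 in naive T and by 0.43 at 3 h. The list's medians were -0.23 and -0.17.

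None of the DNA-binding partners of Irf4 and Irf8 was more than 2-fold higher in either genotype, unlike Irf4 itself. Of 7 partners with a difference, 2 were more than 2-fold lower in each genotype. Jun differed by -3.13 and -2.55. Junb differed by -0.21 and -0.23 by its brightest probe. Over 3 Junb probes the differences went from -0.30 to -0.10 in WT and from -0.23 to 0.52 in Nr4a-TKO. Batf3 had log2 levels of 4.16 in WT naive T and 4.14 in WT iTreg, and neither of the arrays labelled Nr4a-TKO read it above background. Between genotypes at 3 h, 1 partner was past 2-fold. This was Spib, higher by 1.31 on the array labelled Nr4a-TKO and named after its value was seen, in the same comparison where the B cell genes had a median of 0.77, whose part in it was not tested. Among the 3 co-repressors of Irf2, Irf2bp2 differed by 1.17 (WT) and 0.70 (Nr4a-TKO) and Irf2bpl by -2.24 and -1.83.

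Of 8 interferon genes, 7 were on the array. Ifnb1, Ifna4 and Ifne were not well above background on any array. Ifnl3 was level across stages, with differences of -0.04 and 0.02, and Ifna2 was near the background. Ifng, named after its value was seen, was well above background only in Nr4a-TKO iTreg at 3 h, at 4.58, which puts it at least 1.15 above WT iTreg on the log2 scale. Ifnk, also named after its value was seen, was well above background on that array alone, at 4.41 or at least 0.98 above WT iTreg.

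Between genotypes at 3 h, no gene of interferon signalling, of the innate sensors, of the interferon-stimulated genes or of class I antigen processing was past 2-fold, with median log2 differences of 0.09, 0.00, -0.05 and -0.02. In naive T only the interferon-stimulated gene Oasl2, named after its value was seen, was past 2-fold among these 4 lists, with a log2 difference of at most -1.04 on the array labelled Nr4a-TKO, where it was not well above background.

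**Figure D4:**
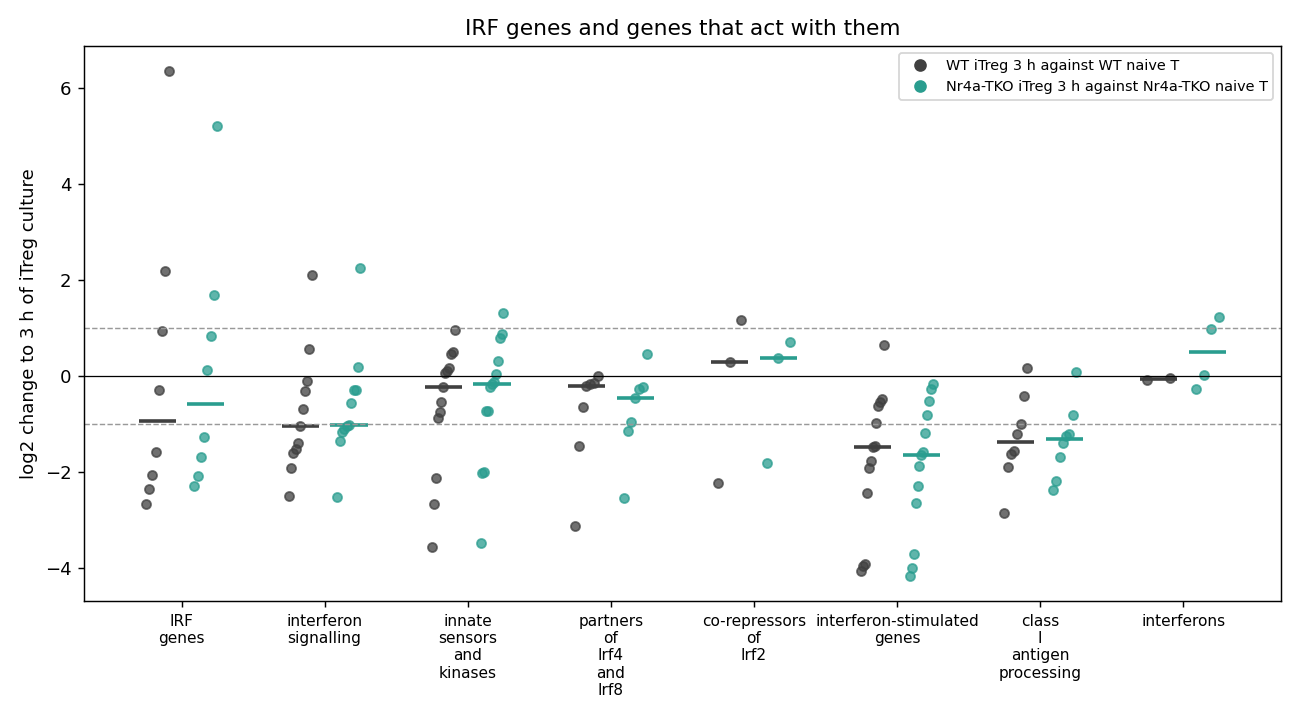
Log2 change to 3 h of iTreg culture for the IRF genes and the 7 lists, 1 point per gene with a difference, in WT (dark) and in cells labelled Nr4a-TKO (green), with bars at the medians and dashed lines at 2-fold. The IRF genes span from -2.67 to 6.35 in WT, and the interferon-stimulated and class I genes lie mostly below 0, with medians of -1.48 and -1.39 in WT.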

How the data were processed

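RNA of 1 sample per condition was labelled with Cy3 and hybridized to an 8x60K SurePrint G3 Mouse GE array. The authors deposited the output of Agilent Feature Extraction 11.5.1.1, with the mean intensity of each spot, its local background intensity, a processed intensity and flags. A value table was deposited as well, on the log2 scale: between 99.93% and 99.95% of probes per array lay within 0.02 of the log2 processed intensity less 1 constant. Their methods name RMA, and their results use a 2-fold threshold. RMA has no local background and the deposited table no quantile step, so the values here are like RMA but not the same: normexp (offset 0) with the local background, quantile normalization of the 4 arrays together, log2, and averaging of spots of a probe, with limma 3.58.1 in R 4.3.3 (files read with data.table, version 1.17.8). Control spots and 115 to 160 flagged spots per array were left out. Differences were computed with pandas 2.3.3 and numpy 2.4.6 in Python 3.11.15 where at least 1 of 2 arrays was well above background, and drawn with matplotlib 3.10.9. The counting was checked on simulated data. Genes named outside the 8 were the targeted genes, the brightest and those with the highest and lowest change in WT of each list, and the 5 nearest profiles of 4 members, of which 1 gene is not reported here. Cell type markers, interferon genes and genes named where a count was small were named outside this rule. The genes and lists were chosen with earlier results of these data known. Protein sequences were not used here.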

Additional observations from a re-analysis of the deposited data

How the results depend on the processing

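The alternatives were a normexp offset of 50, no background correction, processed intensity scaled to the 75th percentile, values as deposited, averaging a gene's probes, a stricter and no filter on dim probes, and thresholds of 1.5-fold and 3-fold. Of 224 values of single IRF genes, 175 moved by less than 1 SD of a difference between repeated spots (between 0.16 and 0.18) and 49 by more. The 175 include all values under the stricter filter and under no filter. Those could not move, because the probe used for each IRF gene was well above background on all arrays. No difference that was past 2-fold in the main setting changed sign. Among the smaller ones, that of Irf7 between the naive arrays went from 0.11 to -0.10 with the mean of its probes. With the offset of 50, the number of IRF genes more than 2-fold higher at 3 h in Nr4a-TKO was 1 rather than 2, and the number higher in Nr4a-TKO naive T was 0 rather than 1. With the 3-fold threshold the latter was 0 too. The number lower at 3 h in Nr4a-TKO was 3 rather than 4 with the offset of 50, with the mean of a gene's probes and with the 3-fold threshold. The number higher at 3 h was 3 rather than 2 in WT with the deposited values, and in both genotypes with the 1.5-fold threshold. An offset shrinks differences of dim probes by its construction. Over all genes, those past the threshold at 3 h in WT were 2179 higher and 2185 lower and ranged over the alternatives from 851 to 4418 and from 973 to 4555. In Nr4a-TKO the 2050 higher and 2066 lower ranged from 703 to 4336 and from 874 to 4452. Between genotypes in naive T the 491 higher and 455 lower ranged from 110 to 1352 and from 98 to 1401, and at 3 h the 455 and 503 ranged from 82 to 1396 and from 108 to 1374. No paired analysis was possible because each condition had 1 array, and no array could be left out for the same reason. Low signal over background limits the naive level of Irf8 and the second probes of Irf2 and Irf8.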
